A study of Mus musculus with 6 samples.

Results

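MicroRNA (miRNA) levels in mouse brain microglia were compared with those in colon macrophages. A miRNA was kept where either group detected it on both of its arrays, which left 379 of the 1247 mouse miRNAs on the array. The microglia were sorted as CD45int CD11b+ F4/80+ Ly6C- Ly6G- cells from the brain, and the colon macrophages as CD45+ CD11b+ CD11c+ CD64+ Ly6C- cells. Both came from wild-type male C57BL6/J mice kept under SPF conditions. Their age was 6 weeks by the sample labels and 6 to 8 weeks by the study's design text. Each group had 2 arrays, and each array held RNA from a pool of 4 to 6 mice, so the spread between replicates is a spread between pools and no value belongs to a single mouse. The model also held 2 arrays of liver macrophages, which shared in the estimate of the spread. They also entered the scaling, the floor and the choice of miRNAs that were fitted. Cells were taken directly from tissue within 5 h, and 100 ng of total RNA per array was labelled with the dye Cy3 and hybridised to 1-colour Agilent miRNA arrays. The 2 populations were gated with different antibody panels, so tissue and gate differ together. The proteins used in the gates are not measured on a miRNA array, and no miRNA defines either cell type by itself.

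A miRNA is a short RNA cut from a hairpin precursor, and either side of the hairpin can yield a mature strand, called the 5p or the 3p arm. The mature strand is loaded into an Argonaute protein and represses messenger RNAs that pair with its seed, bases 2 to 8 counted from its 5′ end, so miRNAs with the same seed are expected to share many targets. Microglia descend from yolk sac progenitors and renew themselves within the brain, whereas most macrophages of the adult colon are replenished by blood monocytes.

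The sequences that follow are those of the miRNAs on which the results turn. They are RefSeq entries of assembly GRCm38.p6, written 5′ to 3′ with the seed in capitals. The arms of Mir455 (miR-455-3p at chr4:63256904-63256924, plus strand, inside the collagen gene Col27a1, on its strand) and of Mir342 (miR-342-3p at chr12:108658680-108658702, plus strand, within Evl on the same strand) are shown because both arms of each hairpin rose in microglia.
miR-455-3p: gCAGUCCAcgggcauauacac
miR-455-5p: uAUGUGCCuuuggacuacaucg
miR-342-3p: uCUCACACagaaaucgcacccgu
miR-342-5p: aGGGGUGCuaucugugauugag

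The miR-181, miR-99/100 and miR-125 sequences are shown because they share a seed within each set, while not every member of a set passed as higher in microglia. Differences between members were not tested.
miR-181a-5p: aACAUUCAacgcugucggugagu
miR-181b-5p: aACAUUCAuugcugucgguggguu
miR-181c-5p: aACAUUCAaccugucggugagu
miR-181d-5p: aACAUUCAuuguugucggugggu
miR-99a-5p: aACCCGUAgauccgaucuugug
miR-100-5p: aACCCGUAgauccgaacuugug
miR-99b-5p: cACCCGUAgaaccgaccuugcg
miR-125b-5p: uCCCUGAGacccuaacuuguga
miR-125a-5p: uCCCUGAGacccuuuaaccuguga
miR-6394: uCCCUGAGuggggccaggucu

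The miRNAs lower in microglia that are shown are miR-223-3p (chrX:96242884-96242905, plus strand, in no host gene), miR-511-3p (chr2:14261051-14261072, plus strand, within the mannose receptor gene Mrc1 on the same strand) and the seed mates miR-196a-5p and miR-196b-5p, whose genes lie among the Hox genes on separate chromosomes.
miR-223-3p: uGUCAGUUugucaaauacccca
miR-511-3p: aAUGUGUAgcaaaagacaggau
miR-196a-5p: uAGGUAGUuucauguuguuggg
miR-196b-5p: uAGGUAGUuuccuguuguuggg
The hairpin of Mir511 (chr2:14261003-14261081) is printed with the 3p arm in capitals, since that arm alone was tested.
Mir511: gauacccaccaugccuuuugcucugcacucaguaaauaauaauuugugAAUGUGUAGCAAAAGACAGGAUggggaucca

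Levels are given as log2 of a scaled array signal. The scale of an array is its 75th percentile among 248 miRNAs that all 6 arrays detected, and signals under a floor of 1.64 log2 units were set to the floor. The brightness of a spot also depends on its probe, so levels are compared between groups within a miRNA. The microglia arrays detected 300 and 330 miRNAs, against 403 and 352 on the colon arrays, with median signals 10.5 to 11.2 times their measurement error. Pearson's r over the 253 miRNAs that these 4 arrays all detected was 0.968 for the microglia replicates, 0.988 for the colon replicates and 0.81 to 0.872 between microglia and colon arrays, a description across miRNAs of whole arrays. In such bulk RNA, fewer cells that express a miRNA and less of it per cell cannot be told apart. Microglia replicate 1 stood apart from replicate 2 in markers of other cell types: the summed signal of the epithelial list was 1154 scaled units in replicate 1 and 62.5 in replicate 2, against 5938 and 4191 on the colon arrays. The signal of the erythroid miR-451a was 9.46 and 6.93 log2 units in microglia, against 5.88 and 5.68 in colon macrophages. Many of the calls below, though not all, are therefore also described without 1 array.

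Of the 379 miRNAs, 67 were higher in microglia (17.7%) and 108 lower (28.5%) at an adjusted p of at most 0.05, together 175 or 46.2%, by limma's moderated test with Benjamini-Hochberg adjustment. For 323 miRNAs both microglia arrays lay on the same side of both colon arrays, 85.2% of those tested. The median change was -0.43 log2 units, so a miRNA near that value moved with the bulk of the array. The split between directions depended on the scaling: median scaling gave 112 higher and 69 lower, quantile normalization 100 and 59, and the authors' own values 95 and 65. Unscaled signals gave 29 higher and 108 lower, and spike-in scaling 29 and 139. The median change under these 5 settings was -0.05, 0.02, -0.02, -0.76 and -1.02. No miRNA was called in opposite directions by any of the alternatives.

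How a miRNA was detected set much of the split. Among the 253 miRNAs detected on all 4 arrays, 45 rose, 49 fell and 159 did not pass, with a median change of -0.02. A further 63 were detected on both colon arrays and on neither microglia array, and 44 of them passed as lower. The reverse pattern, both microglia arrays and neither colon array, held for 20 miRNAs, 17 of which passed as higher. Another 34 were detected on both colon arrays and 1 microglia array (15 lower), and 9 on both microglia arrays and 1 colon array (5 higher). A miRNA kept through detection in 1 group alone had to be brighter there, so these counts describe the selection as well as the cells. A group without detection has both arrays at the floor and no spread of its own, which lowers the pooled spread, and its standard errors and p-values may be too small.

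**Figure D1:**
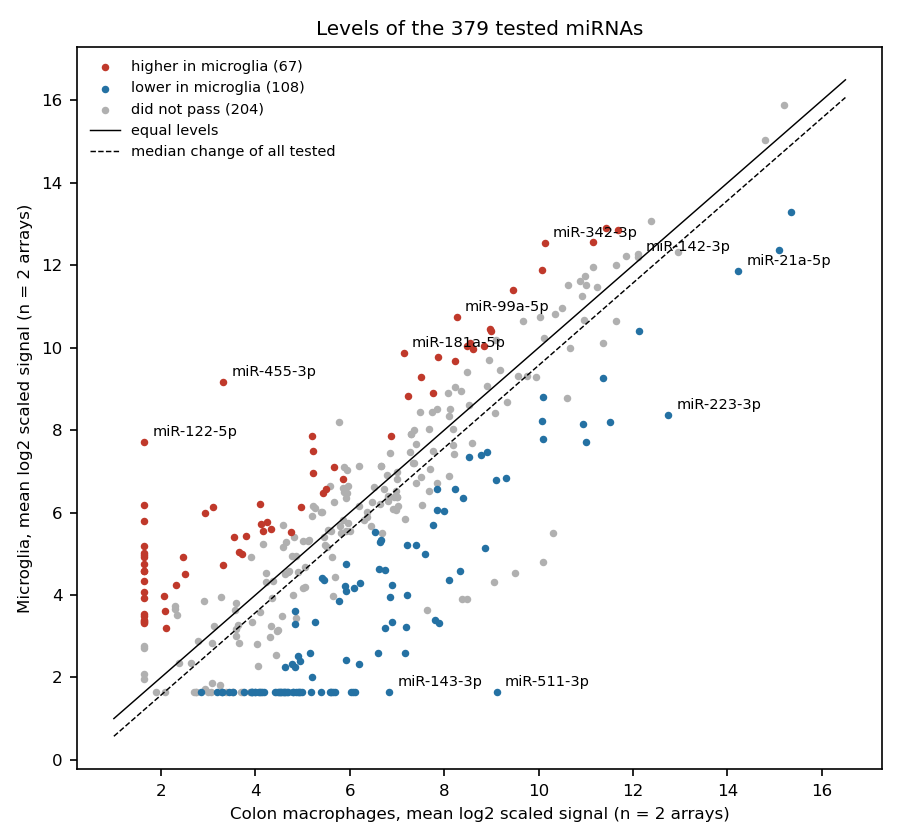
Mean log2 scaled signal of each of the 379 tested miRNAs in microglia (vertical axis) against colon macrophages (horizontal axis), 2 arrays each. Red points (67) were higher and blue points (108) lower in microglia, grey points (204) did not pass; points lined up along the left and lower edges belong to groups at the floor of 1.64, and the dashed line marks the median change of -0.43.

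Each call was repeated under 6 other scalings or value sources and in 4 fits that each left out 1 microglia or colon array. In those 4 fits the lone remaining array of a group is assumed to vary as the other groups do. Most calls over all tested miRNAs were lost in at least 1 of these fits, so such a loss, where described below, is not particular to its list. Of the 67 higher miRNAs, 29 kept their call under all 6 scalings, and 16 kept it without each of the 4 arrays. Of the 108 lower miRNAs, 47 and 26 did so. Among miRNAs detected on all 4 arrays, 6 higher and 8 lower ones kept the call in all 10 of these fits. The 6 were miR-455-3p, miR-342-5p, miR-181a-5p, miR-181b-5p, miR-99a-5p and miR-467a-3p. The 8 were miR-223-3p, miR-370-3p, miR-5105, miR-5622-3p, miR-1306-3p, miR-681, miR-10a-5p and miR-10b-5p.

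miR-455-3p, studied mostly in cartilage, had the largest rise among called miRNAs detected on all 4 arrays. Its level was 9.06 and 9.25 in the microglia replicates, against a log2 level of 3.0 and 3.64 in the colon replicates. Both colon values lay far below both microglia values. The difference was 57.1-fold (log2 change 5.84, SE 0.31, adjusted p = 0.000726), and over the 6 other scalings the log2 change ranged between 5.24 and 6.68. Its other arm, miR-455-5p, was at 6.06 and 6.31 in microglia and was detected on neither colon array, at least 21.3-fold higher in microglia (adjusted p = 0.000726). Without any 1 array the highest adjusted p was 0.0144 for the 3p arm and 0.0128 for the 5p arm.

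The miR-342 arms, expressed in myeloid cells, both rose. miR-342-5p was at 5.85 and 6.41 in microglia, against 3.09 and 3.13 in colon macrophages (log2 change 3.02, SE 0.34, adjusted p = 0.00287). miR-342-3p, the brighter arm, was at 12.26 and 12.82 in microglia, against 10.12 and 10.13 in colon macrophages (log2 change 2.42, SE 0.37, adjusted p = 0.00834). The groups did not overlap for either arm. The 5p call held without each of the 4 arrays, while the 3p call held only without microglia replicate 1, with an adjusted p of up to 0.0833 without another.

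The miR-181 family tunes antigen receptor signalling in developing lymphocytes. miR-181a-5p was at 9.73 and 9.99 in microglia, against 7.19 and 7.09 in colon macrophages, so 6.59-fold higher (log2 change 2.72, SE 0.25, adjusted p = 0.00177). miR-181b-5p was at 7.60 and 8.09 in microglia, against 5.16 and 5.22 in colon macrophages (log2 change 2.66, SE 0.30, adjusted p = 0.00287). The groups did not overlap for either. miR-181a-1-3p, the other arm of the Mir181a-1 hairpin on chromosome 1, was detected on the microglia arrays alone, at 5.00 and 5.36, a rise of at least 10.6-fold (adjusted p = 0.00112). miR-181c-5p rose by 2.10 log2 units (adjusted p = 0.0195) but lost its call without each of the 4 arrays (adjusted p of up to 0.138) and under 2 scalings. miR-181d-5p, at 3.49 and 3.97 in microglia, against 2.93 and not detected in colon macrophages, did not pass (adjusted p = 0.113, 95% interval of the log2 change -0.19 to 3.07). In all, 4 of 5 tested members of the family rose, with a list median of 2.66, beside 17.7% higher and a median of -0.43 over all tested miRNAs, 3 to 5 under other scalings and 3 to 4 without 1 array. The mature miR-181a-5p and miR-181b-5p can come from either of 2 loci, on chromosomes 1 and 2, which the probes cannot tell apart. The miR-181a-1-3p arm belongs to the chromosome 1 locus alone. The arm specific to the chromosome 2 locus, miR-181a-2-3p, was detected on microglia replicate 2 only, at 1.97.

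The miR-99/100 and miR-125 families share clusters with let-7 genes and have been described in haematopoietic cells. miR-99a-5p was at 10.54 and 10.95 in microglia, against 8.46 and 8.06 in colon macrophages (log2 change 2.49, SE 0.30, adjusted p = 0.0033). miR-100-5p was at 7.29 and 7.70 in microglia, against 5.42 and 5.02 in colon macrophages (log2 change 2.28, SE 0.37, adjusted p = 0.0102). miR-99b-5p, with the same seed, was at 6.04 and 6.26 in microglia and at 6.25 and 6.12 in colon macrophages, and its groups overlapped (95% interval of the log2 change -0.90 to 0.82). miR-125b-5p was at 11.19 and 11.59 in microglia, against 9.66 and 9.25 in colon macrophages (log2 change 1.93, SE 0.32, adjusted p = 0.0102). Its seed mate miR-125a-5p was at 6.82 and 6.92 in microglia and at 7.43 and 7.57 in colon macrophages and did not pass (adjusted p = 0.117), while the other arm of that hairpin, miR-125a-3p, was at 4.16 and 4.41 in microglia, against 6.28 and 6.14 in colon macrophages (adjusted p = 0.0183). Another miRNA with the seed CCCUGAG, miR-6394, was not detected in microglia and stood at 5.14 and 5.20 in colon macrophages, at least 9.57-fold lower in microglia (adjusted p = 0.00108). This was the 1 seed of the 26 shared by several tested miRNAs that held calls in both directions. miR-100-5p lost its call without each of the 4 arrays (adjusted p of up to 0.0859), and miR-125b-5p without microglia replicate 2 or either colon array (up to 0.0672). miR-99a, miR-125b and the 2 miR-342 arms are also the 4 members of the list of miRNAs reported in microglia by earlier studies. All 4 rose in microglia, beside 17.7% of all tested miRNAs (medians 2.45 and -0.43). The list was chosen with earlier results of these data known, so this count is not independent of them. Without microglia replicate 2 or either colon array, fewer of these calls held. Closely related sequences such as miR-99a-5p and miR-100-5p may share signal through cross-hybridisation, which was not tested.

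A run of miRNA genes on the X chromosome, Mir450b to Mir322 (chrX:53047997-53054349, minus strand), gave 4 rises among its 6 tested arms, beside 17.7% higher over all tested miRNAs. miR-322-5p, the mouse counterpart of human miR-424 and a repressor of cell cycle genes, was at 9.70 and 9.87 in microglia, against 8.02 and 7.74 in colon macrophages (log2 change 1.91, SE 0.33, adjusted p = 0.011). miR-450a-5p was detected on the microglia arrays alone, at 4.88 and 4.95, a rise of at least 8.81-fold (adjusted p = 0.0033). miR-503-5p and miR-542-3p rose by 1.93 and 1.91 log2 units (adjusted p = 0.0296 and 0.0223). miR-542-5p did not pass, and miR-450a-2-3p, detected in colon macrophages alone, changed by -1.10 log2 units without passing (adjusted p = 0.0927). Like most calls over all tested miRNAs, these were sensitive to single arrays: fewer of the 5 listed members of this cluster were called higher in each fit that left out 1 array.

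Other rises detected on all 4 arrays were miR-467a-3p, at 4.86 and 5.01 in microglia, against 2.58 and 2.37 in colon macrophages (log2 change 2.46, adjusted p = 0.00226), and miR-664-3p, at 4.31 and 4.69 in microglia, against 2.40 and 2.63 in colon macrophages (log2 change 1.99, adjusted p = 0.0278). The miR-467a-3p call held without each of the 4 arrays. That of miR-664-3p was lost without each, with an adjusted p of up to 0.169.

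miR-223-3p, abundant in granulocytes and a brake on their numbers, had the largest fall among called miRNAs detected on all 4 arrays. Its level was 8.27 and 8.47 in microglia, against 12.67 and 12.83 in colon macrophages. The difference was 20.8-fold (log2 change -4.38, SE 0.39, adjusted p = 0.00177), and over the other scalings the log2 change ranged between -4.98 and -3.99. The miRNA was well detected in both groups, so the microglia level is a measured one. The other arm, miR-223-5p, was detected on none of the 4 arrays.

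miR-511-3p, which is the arm used in mouse macrophages and is made from Mrc1 transcripts, was detected on neither microglia array and stood at 9.37 and 8.85 on the colon arrays. It was at least 147-fold lower in microglia (adjusted p = 0.000726, and at most 0.0186 without any 1 array). miR-511-5p was detected on colon replicate 1 alone, at 2.63. Mrc1 RNA itself was not measured.

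miR-21a-5p, an abundant miRNA induced in inflammation, was at 11.80 and 11.92 in microglia, against 14.20 and 14.25 in colon macrophages (log2 change -2.36, SE 0.57, adjusted p = 0.027). Its groups were separated by 2 log2 units with almost no spread within them, yet the call was lost without each of the 4 arrays (adjusted p of up to 0.174). The liver arrays, which enter the spread, were at 13.50 and 15.16. The paired miR-221-3p and miR-222-3p, repressors of the cell cycle inhibitor p27 and of Kit, lie in 1 cluster (chrX:19146294-19146971, minus strand). miR-221-3p was at 4.61 and 4.65 in microglia, against 6.62 and 6.63 in colon macrophages (log2 change -1.99, adjusted p = 0.0195). miR-222-3p was not detected in microglia and stood at 4.68 and 5.21 in colon macrophages (adjusted p = 0.00362). The miR-221-3p call was lost without each of the 4 arrays (adjusted p of up to 0.132), and that of miR-222-3p without either microglia array or colon replicate 2 (up to 0.0558).

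The 4 tested miRNAs of the Hox gene clusters all fell in microglia, with a list median of -2.77, beside 28.5% lower and a median of -0.43 over all tested miRNAs. miR-10a-5p was at 6.15 and 6.56 in microglia, against 8.31 and 8.50 in colon macrophages (log2 change -2.05, SE 0.28, adjusted p = 0.00569). miR-10b-5p was at 4.19 and 4.16 in microglia, against 5.86 and 6.33 in colon macrophages (log2 change -1.92, adjusted p = 0.00683). miR-196a-5p had no detection in microglia and stood at 5.77 and 5.39 in colon macrophages, at least 12.7-fold lower in microglia (adjusted p = 0.00108). miR-196b-5p was at 3.22 and not detected in microglia, against 6.20 and 5.63 in colon macrophages (log2 change -3.49, adjusted p = 0.0102). No microglia value of these miRNAs reached a colon value. The first 3 kept their calls without each array, and miR-196b-5p lost its call without either colon array (adjusted p of up to 0.11). In the embryo Hox genes pattern the body behind the midbrain, and these miRNAs are transcribed from within their clusters.

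The imprinted Dlk1-Dio3 region on chromosome 12 carries a long run of miRNA genes that are active in embryo and brain. Of 39 of its miRNAs on the array 33 were detected on none of the 4 arrays, and 4 were tested. The list of 39 is not complete. miR-3072-5p, from the same run of genes, was tested too and did not pass (log2 change 0.23), as was miR-770-3p from nearby on chromosome 12. miR-494-3p was at 8.63 and 7.77 in microglia, against 11.81 and 11.22 in colon macrophages (log2 change -3.32, adjusted p = 0.0104). miR-370-3p was at 3.74 and 4.24 in microglia, against 7.21 and 7.19 in colon macrophages (log2 change -3.21, adjusted p = 0.00226). miR-134-5p and miR-487b-3p did not pass, at log2 changes of -0.79 and 0.94. The miR-494-3p call was lost without each of the 4 arrays (adjusted p of up to 0.11), and that of miR-370-3p held without each.

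Among the other large falls, miR-5105 was at 8.03 and 7.38 in microglia, against 11.23 and 10.76 in colon macrophages (log2 change -3.29, adjusted p = 0.0025). miR-5622-3p fell by 2.78 log2 units (adjusted p = 0.003) and miR-1306-3p, from within the microprocessor gene Dgcr8, fell by 2.59 (adjusted p = 0.00244). These 3 calls held in all 10 fits described above. miR-497-5p, of the miR-15/16 family, was at 4.41 and 3.48 in microglia, against 7.09 and 6.62 in colon macrophages (adjusted p = 0.00598, and up to 0.0659 without a colon array). miR-3472 and miR-714 fell by 3.75 and 3.71 log2 units with wide microglia replicates (SD 1.65 and 1.36). Both calls were lost without either colon array or liver replicate 1, and that of miR-3472 also without microglia replicate 2 or liver replicate 2 (adjusted p of up to 0.169 and 0.13 over the microglia and colon arrays). miR-6243, the brightest of these at 12.63 and 12.09 in microglia, against 15.24 and 14.95 in colon macrophages, fell by 2.73 (adjusted p = 0.00287). It did not pass with quantile normalization or in the authors' value table (adjusted p of up to 0.0899). miR-3096a-5p fell by 2.64 (adjusted p = 0.0194, up to 0.141 without 1 array). Apart from miR-497-5p these miRNAs have been little studied, and no function is given here for them. miR-5105, miR-714, miR-6243 and miR-3096a-5p were not matched to a RefSeq mature sequence by name.

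**Figure D2:**
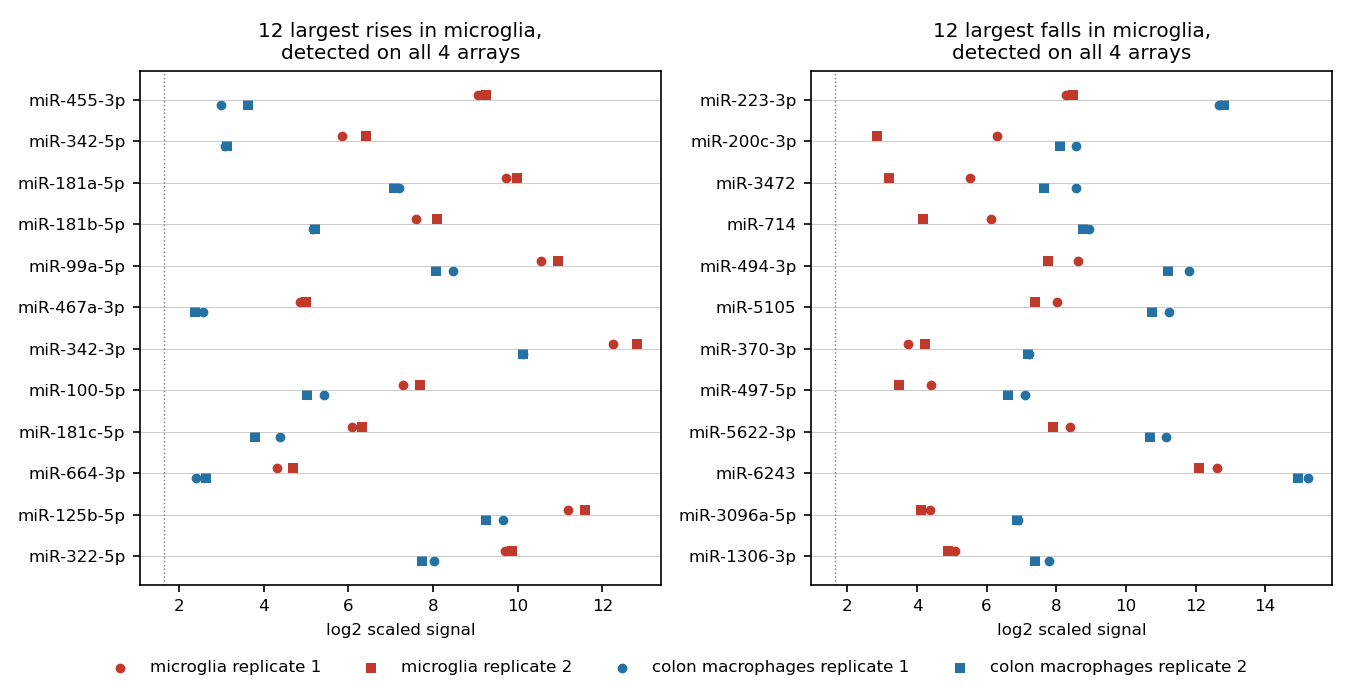
Log2 scaled signal on each array of the 12 miRNAs with the largest rises (left) and the 12 with the largest falls (right) in microglia among called miRNAs that were detected on all 4 arrays and did not overlap between groups. Red symbols are the 2 microglia arrays and blue symbols the 2 colon arrays; the dotted line is the floor of 1.64. miR-455-3p stands furthest apart on the left, and the microglia replicates of miR-200c-3p, miR-3472 and miR-714 lie far from each other on the right.

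For miRNAs detected in 1 group alone the fold is a lower bound, the mean of the brighter group over the lowest detected signal on the other group's arrays. In microglia the largest bound was that of miR-122-5p, which hepatocytes make in large amounts: it stood at 8.11 and 7.30 in microglia with no detection in colon macrophages, a rise of at least 61.1-fold (adjusted p = 0.00108). On the liver arrays, which come from the tissue that makes this miRNA, it stood at 11.07 and 11.82. The other 3 tested members of the hepatocyte list did not pass, and all 3 passed as lower without microglia replicate 1. The summed signal of the list was 781 and 165 scaled units in microglia, against 2592 and 1852 in colon macrophages; in colon macrophages most of it came from miR-192-5p and miR-194-5p, which epithelium makes too. The part of liver RNA in the miR-122-5p signal of microglia was not tested. miR-3106-5p (at least 16.1-fold) and miR-3070a-3p (at least 9.1-fold) had microglia replicates more than 2 log2 units apart, and both lost their calls without either colon array or either liver array (adjusted p of up to 0.13 and 0.169 over the microglia and colon arrays). miR-190a-5p was at 4.75 and 4.78 in microglia, at least 7.93-fold higher, and miR-744-5p at 4.39 and 4.78, at least 7.02-fold higher (adjusted p = 0.00114 and 0.00177). miR-467e-5p and miR-466b-3p were at least 7.02-fold and 5.94-fold higher.

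In the other direction miR-143-3p, a miRNA of smooth muscle and fibroblasts, was not detected in microglia and stood at 7.31 and 6.37 in colon macrophages, at least 30.5-fold lower in microglia (adjusted p = 0.00108). The bounds of miR-6392-3p, miR-3474, miR-96-5p and miR-199a-5p were 18-fold, 17.4-fold, 13.4-fold and 12.8-fold, and these calls held without each of the 4 arrays. Those of miR-468-3p (at least 18.4-fold), miR-669l-5p (at least 13.7-fold) and miR-466m-5p (at least 11.2-fold) did not, with adjusted p of up to 0.201, 0.253 and 0.253.

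**Figure D3:**
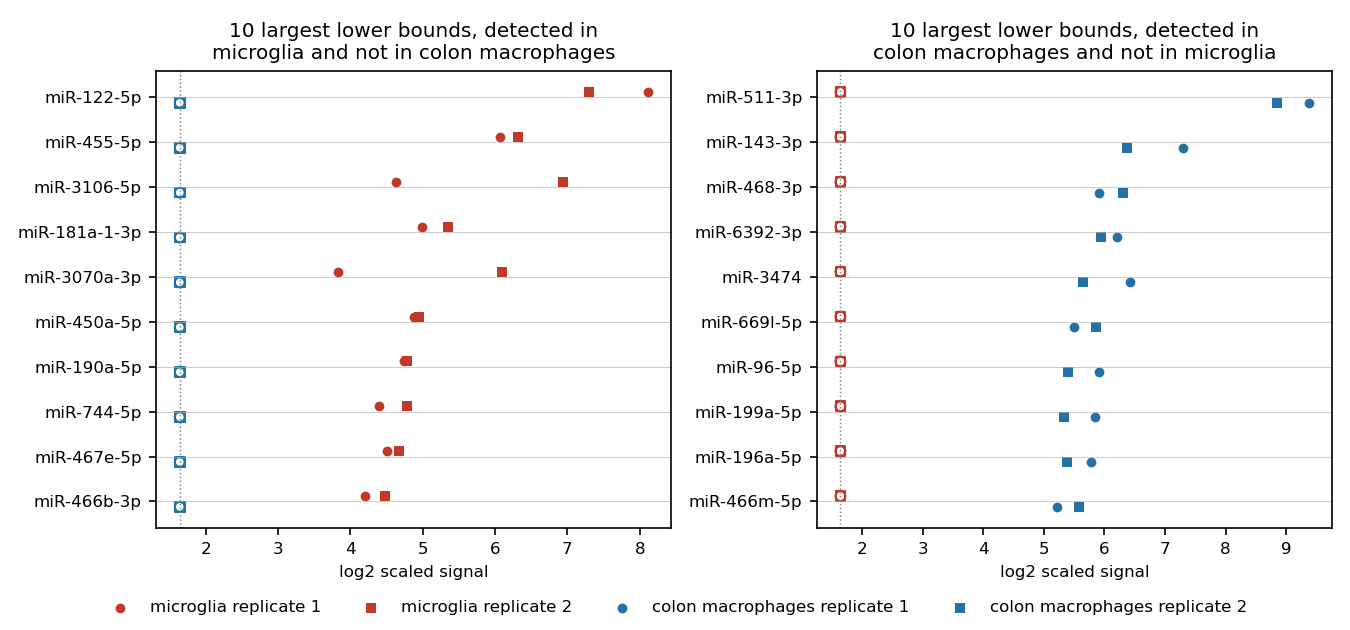
Log2 scaled signal on each array of the 10 miRNAs with the largest lower bounds that were detected in microglia and not in colon macrophages (left) and of the 10 with the reverse pattern (right). Filled symbols are detected values, red for microglia and blue for colon macrophages, and open symbols at the dotted floor of 1.64 are arrays without detection. miR-122-5p leads on the left and miR-511-3p on the right, and miR-3106-5p and miR-3070a-3p show the widest gap between microglia replicates.

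A further 71 miRNAs lay just outside the detection rule, having been detected on a single array of a group: 25 on 1 microglia array alone, 39 on 1 colon array alone and 7 on 1 array of each. Among those seen in 1 group alone, the brightest were miR-1941-5p (6.85), miR-5124a (5.90) and miR-5108 (4.39) on microglia replicate 2, and miR-341-3p (4.74), miR-5116 (4.62) and miR-1901 (4.27) on colon replicate 1. Of the 7 seen in both groups the brightest was miR-6405, at 4.52 on microglia replicate 2 and 3.79 on colon replicate 1. The remaining 797 were detected on none of the 4 arrays.

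Of 11 tested myeloid miRNAs, 2 rose (the miR-342 arms), 3 fell (miR-223-3p, miR-511-3p and miR-21a-5p) and 6 did not pass, shares near the 17.7% higher and 28.5% lower over all tested miRNAs. miR-142-3p, present across blood lineages, was at 12.08 and 12.31 in microglia and at 11.89 and 12.30 in colon macrophages, with overlapping groups (95% interval of the log2 change -0.85 to 1.04). miR-146a-5p and miR-155-5p, which damp and drive inflammatory signalling, did not pass at log2 changes of 0.74 and -0.86. Of 8 tested inflammatory response miRNAs, 4 fell, beside 28.5% of all tested miRNAs, with a list median of -1.43 beside -0.43 (the 4 were miR-132-3p, miR-221-3p, miR-222-3p and miR-21a-5p). The number lower was 1 without either microglia array or colon replicate 1, and 0 without colon replicate 2. miR-132-3p was not detected on microglia replicate 1 and at 3.53 on replicate 2, against 6.37 and 6.80 in colon macrophages (log2 change -4.00, adjusted p = 0.0105). miR-212-3p, its neighbour on chromosome 11 with the same seed, was at 6.75 and 7.10 in microglia and at 6.72 and 6.84 in colon macrophages and did not pass (adjusted p = 0.724). Of 6 tested lymphocyte miRNAs 4 rose, beside 17.7% of all tested miRNAs (medians 2.38 and -0.43), 3 of them from the miR-181 family and the other miR-150-3p, and 2 to 3 did so without 1 array. All 3 tested members of the mast cell and granulocyte list fell (the miR-221/222 pair and miR-223-3p), beside 28.5% of all tested miRNAs (medians -3.31 and -0.43), and 1 did without either microglia array or colon replicate 2.

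Some markers of other cell types differed between the groups, and others did not pass. Of 6 tested neuron miRNAs, 4 rose and miR-132-3p fell, beside 17.7% higher and 28.5% lower over all tested miRNAs (medians 1.55 and -0.43). Both miR-9 arms lacked detection in colon macrophages. In microglia miR-9-5p was at 3.40 and 3.59 and miR-9-3p at 3.39 and 3.26, rises of at least 3.30-fold and 2.92-fold (adjusted p = 0.00479 and 0.00649). miR-124-3p was at 4.08 and 3.86 in microglia, against 2.47 and not detected in colon macrophages (adjusted p = 0.0134), a call lost under 2 scalings and without either microglia array (up to 0.0968). miR-128-3p rose by 1.41 log2 units (adjusted p = 0.0488) and lost its call without each of the 4 arrays (up to 0.222). All 4 stood low on the arrays, at most at 4.77, and 7 of the 15 neuron miRNAs on the array were detected on none of the 4 arrays. The list's summed signal, 171 and 223 scaled units in microglia, against 204 and 245 in colon macrophages, overlapped between the groups. Most of it came from miR-212-3p (6.75 and 7.10 in microglia, 6.72 and 6.84 in colon macrophages) and, in colon macrophages, also from miR-132-3p (6.37 and 6.80). Both stand in the inflammatory response list too, so the sum says little about the dimmer members. miR-219-5p, a miRNA of oligodendrocytes, rose by 1.54 log2 units (adjusted p = 0.0221) and the other 4 tested members of that list did not pass. It lost its call without each of the 4 arrays. The part of neuronal or glial RNA in the microglia signal was not tested.

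Of 13 tested epithelial miRNAs, 5 fell, 1 rose and 7 did not pass, beside 28.5% lower and 17.7% higher over all tested miRNAs (medians -4.01 and -0.43), and the microglia replicates disagreed. miR-200b-3p, a repressor of the transcription factors Zeb1 and Zeb2, was at 7.94 on microglia replicate 1 and not detected on replicate 2, against 10.34 and 9.86 in colon macrophages (log2 change -5.31, adjusted p = 0.0723). miR-200c-3p was at 6.30 and 2.85 in microglia, against 8.57 and 8.10 in colon macrophages (log2 change -3.76, SE 1.15, adjusted p = 0.0477). Replicate 1 detected 10 of the list's 17 miRNAs and replicate 2 detected 3, against 16 and 13 on the colon arrays. Without microglia replicate 1, 10 members fell, against 4 without replicate 2. Without colon replicate 1 or either liver array 2 did. miR-96-5p and miR-205-5p fell in limma's test and were detected on neither microglia array. Of the 13 tested members 3 were detected on all 4 arrays, and the others were kept through detection on both colon arrays. miR-203-3p, a miRNA of squamous epithelium, rose by 1.29 log2 units (adjusted p = 0.0477), a call lost under 2 scalings and without either microglia array or either liver array. The part of epithelial RNA in the colon macrophage values, and in those of microglia replicate 1, was not tested.

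Of 8 tested smooth muscle and fibroblast miRNAs 7 fell, beside 28.5% of all tested miRNAs (medians -3.50 and -0.43), 4 of them without either microglia array or colon replicate 1. Beside miR-143-3p these were miR-145a-5p, miR-214-3p, miR-1a-3p, miR-199b-5p and both arms of miR-199a. Of the 8 tested members 1 was detected on all 4 arrays. The others were kept through detection on both colon arrays and had to be brighter there, so 28.5% is a low reference for them. Of all 63 miRNAs detected on both colon arrays and neither microglia array 44 passed as lower, and of the 34 with 1 microglia array 15 did. The list's summed signal was 123 and 98.2 scaled units in microglia, against 820 and 546 in colon macrophages. Mir199a-2 and Mir214 lie together on chromosome 1 (chr1:162217814-162223477, plus strand) within Dnm3, which is on the opposite strand. All 3 tested arms of that pair fell. The miR-199a-5p call held in all 10 fits, that of miR-214-3p was lost without each of the 4 arrays (adjusted p of up to 0.11), and that of miR-199a-3p under 3 scalings and without either colon or either liver array (up to 0.174). miR-199a-5p was not detected in microglia and stood at 5.84 and 5.34 in colon macrophages, and miR-199a-3p was at 5.00 and not detected in microglia, against 8.09 and 7.71 in colon macrophages. Of the 8 endothelial list members 6 fell and 2 rose, beside 28.5% lower and 17.7% higher over all tested miRNAs (medians -1.96 and -0.43), but miR-10a-5p, miR-10b-5p, miR-221-3p, miR-222-3p and the rising miR-100-5p stand in other lists too. miR-126-3p, the most specific of them, was at 5.15 and not detected in microglia, against 7.90 and 7.71 in colon macrophages (log2 change -4.41, adjusted p = 0.0313), a call lost without either colon or either liver array. Between 2 and 5 of the list fell when 1 array was left out. miR-451a, the main erythroid miRNA, did not pass (log2 change 2.42, adjusted p = 0.0604). It passed as higher without microglia replicate 1 (log2 change 1.15, adjusted p = 0.0281) and without microglia replicate 2 (3.69, adjusted p = 0.0128). Of the erythrocyte and platelet list, miR-96-5p alone fell. Which of the differences reported here come from other cells in the sorts was not tested.

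The plot of list members sets these groups beside the miRNA families. Of 10 tested let-7 miRNAs, regulators of developmental timing and proliferation, let-7i-5p rose by 1.82 log2 units (11.64 and 12.14 in microglia, against 10.10 and 10.03 in colon macrophages, adjusted p = 0.0122) and let-7d-3p by 1.10. The other 8 did not pass, and the share that rose was near the 17.7% of all tested miRNAs. Over other scalings 1 to 8 members rose. The number was 0 without microglia replicate 2 or either colon array and 1 without any other array, and let-7i-5p was among those that lost their call (adjusted p of up to 0.0866). Of 11 tested miRNAs of the miR-17-92 cluster and related clusters, known for promoting cell division, 5 rose, beside 17.7% of all tested miRNAs: miR-17-5p, miR-17-3p, miR-20a-5p, miR-20b-5p and miR-92a-3p, by 1.04 to 1.57 log2 units. All 11 were detected on all 4 arrays and had positive changes, but 0 to 11 rose over other scalings. Their median was 0.97, beside -0.43 for all tested miRNAs and -0.02 for those detected on all 4 arrays. Without 1 array the number was 2 without microglia replicate 1, 0 without microglia replicate 2 or either colon array, and 9 without either liver array.

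The miR-15/16 family, which restrains the cell cycle, had members called in both directions. Differences between its members were not tested, and miR-16-5p can come from 2 loci. miR-16-5p was at 12.43 and 12.70 in microglia, against 11.12 and 11.19 in colon macrophages (log2 change 1.41, adjusted p = 0.0288). miR-15a-5p rose by 1.47 log2 units (adjusted p = 0.0447), and miR-322-5p and miR-503-5p rose as given above. miR-15b-5p and miR-195a-5p had changes of -0.65 and -0.70 and did not pass, and miR-497-5p fell. Without 1 array 0 to 3 of the 4 rises were called, 0 without either microglia array. Of 6 tested miR-29 members, repressors of collagen and other matrix transcripts, miR-29a-3p, miR-29a-5p and miR-29c-5p rose by 1.18, 1.52 and 2.28 log2 units, beside 17.7% higher over all tested miRNAs (medians 1.17 and -0.43). None of the 3 was called without a microglia or colon array by limma, and 5 members were without either liver array. Of 9 tested miR-30 members 4 rose, beside 17.7% of all tested miRNAs (medians 1.35 and -0.43): miR-30a-5p, miR-30a-3p, miR-30c-5p and miR-30e-3p, by 1.36 to 3.07 log2 units, 0 to 3 of them without 1 array and 0 to 6 over other scalings. miR-34a-5p, a target of p53, was at 7.99 and 8.47 in microglia, against 10.24 and 9.89 in colon macrophages (log2 change -1.84, adjusted p = 0.02, up to 0.135 without 1 array).

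The miR-23/27/24 and miR-26 families did not pass in limma's test. miR-23a-3p was at 12.18 and 12.35 in microglia and at 12.15 and 12.06 in colon macrophages (95% interval of the log2 change -0.57 to 0.90). The log2 changes of miR-24-3p, miR-26a-5p and miR-26b-5p were 0.22, 0.34 and 0.71. The intervals were -0.48 to 0.91 for miR-24-3p and -0.36 to 1.04 for miR-26a-5p. Under other scalings 0 to 1 of the 7 tested miR-23/27/24 members rose and 0 to 2 fell, and 0 to 2 of the miR-26 members rose.

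Of 27 tested members of the large miR-297, miR-466, miR-467 and miR-669 families, many of which derive from a single imprinted cluster in the gene Sfmbt2, 4 rose and 9 fell, shares near the 17.7% higher and 28.5% lower over all tested miRNAs (medians -1.33 and -0.43). The 4 were miR-466b-3p, miR-467a-3p, miR-467b-5p and miR-467e-5p, and 4 rose under each of the other scalings. The 9 falls, such as miR-466i-5p (9.31 and 9.20 in microglia, against 11.25 and 11.49 in colon macrophages, log2 change -2.11, adjusted p = 0.023), were 0 to 11 over other scalings. By limma 0 members fell without any 1 of the microglia or colon arrays, and 14 did without either liver array. Many of these sequences are near copies of one another, so their probes may share signal.

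**Figure D4:**
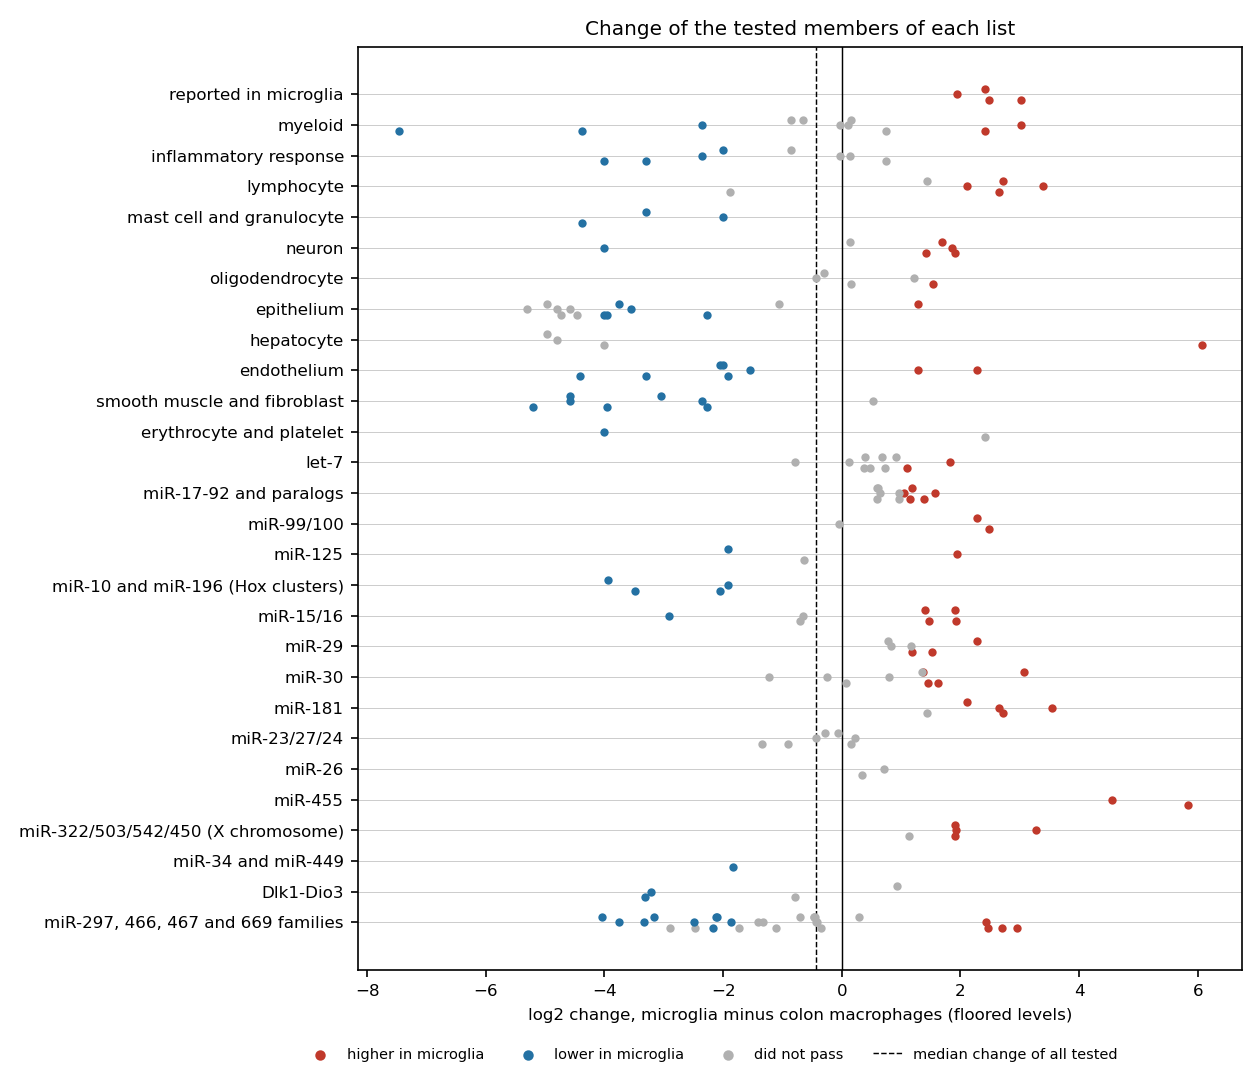
Log2 change (microglia minus colon macrophages, floored levels) of every tested member of each list, 1 row per list and 1 point per miRNA. Red points rose and blue points fell in microglia, grey points did not pass, and the dashed line is the median change of all 379 tested miRNAs, -0.43. The miR-181, miR-455 and microglia lists lie to the right, and the smooth muscle, epithelial and Hox lists mostly to the left.

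Both arms were tested for 46 hairpins, and the signs of their changes matched for 36. Both arms rose for 7 hairpins, among them miR-455, miR-342, miR-9 and miR-17. Both fell for miR-126 and miR-199a. Only miR-328 had an arm called in each direction: miR-328-5p was at 6.27 and 5.86 in microglia, against 7.86 and 7.84 in colon macrophages (log2 change -1.79, adjusted p = 0.0139), and miR-328-3p was at 5.43 and 5.43 in microglia, against 3.46 and 4.13 in colon macrophages (log2 change 1.64, adjusted p = 0.0165). The 5p call was lost without each of the 4 arrays (adjusted p of up to 0.101), and the 3p call was kept without 1 of them. miR-21a-3p did not follow its partner arm: it was at 5.07 and 5.27 in microglia and at 4.58 and 4.59 in colon macrophages (log2 change 0.58, adjusted p = 0.206). miR-150-3p was at 3.63 and 6.42 in microglia, against 1.56, below the floor, and not detected in colon macrophages (log2 change 3.38, adjusted p = 0.0335), a call lost without either colon or either liver array. miR-150-5p, the arm known from mature lymphocytes, was not detected in microglia and stood at 2.83 and 4.22 in colon macrophages, without passing (adjusted p = 0.0908). miR-32-5p was detected on the microglia arrays alone, at 3.54 and 3.21, while miR-32-3p was detected on the colon arrays alone, at 5.37 and 5.84 (adjusted p = 0.00705 and 0.0516). The difference between arms was not tested.

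Of the 379 tested miRNAs 289 matched a RefSeq mature sequence by name. Among the 26 seeds shared by at least 2 of them, 11 had at least 2 members called and all called the same way. Over all tested miRNAs 17.7% were higher and 28.5% lower. The seed ACAUUCA of miR-181 had 3 of 4 members higher, AAAGUGC of the miR-17 family 3 of 5, and AGCAGCA of miR-15/16 3 of 5. miR-497-5p, which fell, carries the seed AGCAGCA too, but RefSeq names it miR-497a-5p and it was not matched. With it that seed would hold calls in both directions. The seeds ACCCUGU of miR-10a-5p and miR-10b-5p, AGGUAGU of miR-196a-5p and miR-196b-5p and GCUACAU of miR-221-3p and miR-222-3p had both members lower. Members of a seed family often share a cluster or a probe-like sequence and are not independent. By position, 29 clusters (genes within 10 kb on the same strand) held at least 2 tested miRNA genes. All 3 tested arms of Mir181a-1 and Mir181b-1 (chr1:137966455-137966718) rose, and 4 of 8 of Mir17 to Mir92-1 (chr14:115043671-115044506) did, beside 17.7% of all tested miRNAs. For Mir23a to Mir24-2 (chr8:84208518-84208921) and for Mir500 to Mir532 (chrX:7237683-7248497) 0 of 5 passed, beside 46.2% in either direction. A mature sequence with several loci was counted at each.

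The brightest miRNAs that did not pass were miR-6366, miR-3963, miR-5100, miR-5126, miR-23a-3p, miR-142-3p, let-7f-5p, let-7a-5p, miR-29b-3p and miR-146a-5p. The widest of their intervals was that of miR-29b-3p, at 12.10 and 11.84 in microglia and at 11.14 and 11.14 in colon macrophages (95% interval of the log2 change -0.38 to 2.03, adjusted p = 0.194). The signals of miR-6366 and miR-3963, at 15.72 and 16.09 and at 14.90 and 15.17 in microglia, were among the highest on the arrays, and those in colon macrophages were 14.79 and 15.59 for miR-6366 and 14.56 and 15.03 for miR-3963.

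**Figure D5:**
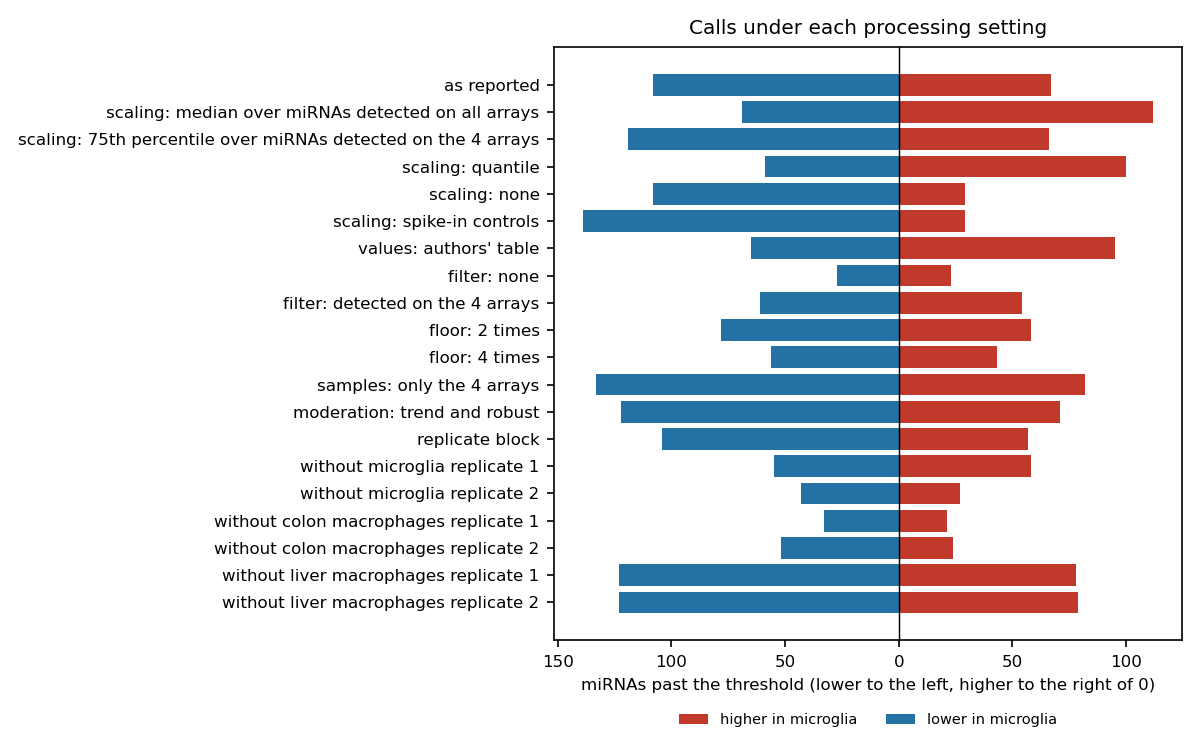
Number of miRNAs past the threshold under each processing setting, lower in microglia to the left of 0 and higher to the right. The 67 higher and 108 lower calls as reported stand at the top; median and quantile scaling and the authors' table give more higher than lower calls, and leaving out a colon array or microglia replicate 2 gives the shortest bars other than testing all 1247 miRNAs.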

How the data were processed

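Per the file headers, the deposited scanner tables give for every miRNA an intensity (its total signal on a linear scale), the error of that signal and a flag for detection. The submitters' processing notes name Agilent Feature Extraction 9.1. A second deposited table, made by the authors, covers 595 miRNAs on a log2 scale, judged by its match to the signals; its normalization is unknown, so it was used only as an alternative. The 21 control rows were dropped. Each array was scaled to its 75th percentile among the 248 miRNAs that all 6 arrays detected, set to a floor of 3.12 scaled units (each array's lowest detected signal, median of the 6) and log2 transformed. limma 3.58.1 (R 4.3.3) fitted 3 group means to 414 miRNAs detected on both arrays of any group (3 residual and 2.20 prior degrees of freedom). The contrast was microglia minus colon macrophages, 2-sided, with Benjamini-Hochberg adjustment over the 379 tested miRNAs. All adjusted p-values are limma's, and the script was tested on simulated data. With 2 arrays per group, precision is limited by their number.

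The members and lists were chosen with earlier results of these data known. Named miRNAs were the 12 largest rises and falls detected on all 4 arrays and the 10 largest bounds in each direction among called miRNAs with no overlap, their other arms and seed mates, list members, the 10 brightest not called and the brightest 3 per group outside the detection rule; miR-328, miR-150, miR-32 and miR-21a-3p were chosen after their values were seen. Names, strands and sequences are those of RefSeq (GRCm38.p6), which matched 289 tested miRNAs by name. Replicate numbers were not taken as pairs: nothing in the labels ties them, and the deviations of the replicates correlated at 0.212 between the groups, which have only 2 pairs.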

Additional observations from a re-analysis of the deposited data

How the results depend on the processing

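By limma, the 67 higher calls became 112 with median scaling, 29 with no scaling, 29 on spike-in controls, 23 with no detection filter and 43 with a floor 4 times as high, and 21 to 79 when 1 array was left out. The 108 lower calls became 69 with median scaling, 59 with quantile normalization, 65 in the authors' value table, 27 with no detection filter, 61 among miRNAs detected on all 4 arrays and 56 with a floor 4 times as high, and 33 to 123 when 1 array was left out. The number of miRNAs tested differed as well. It was 1247 with no detection filter, 253 among those detected on all 4 arrays and 379 to 423 when 1 array was left out. Why the counts moved was not tested. Of the fits without 1 array, that without colon replicate 1 gave the fewest calls (21 higher, 33 lower). Counts without microglia replicate 1 were 58 and 55, without microglia replicate 2 27 and 43, and without colon replicate 2 24 and 52. The lone array of a group was assumed to vary like the others. With 2 times the floor, the 75th percentile over the 4 arrays' miRNAs, only the 4 arrays, or a trended robust moderation, both counts stayed within 1.5 times those reported. With the replicate block 57 rose and 104 fell, 56 and 100 of them shared with the calls above, which bears on a shared number alone. No miRNA named or listed changed direction while called. The planned scaling on the 75th percentile over all miRNAs was not run, because that percentile is a placeholder for undetected miRNAs (0.1) on microglia replicate 1. The tables hold no spots, slides or scan dates, so no other background correction or slide block was tried. With 2 arrays per group, differences of bright uncalled miRNAs are bounded only by the intervals given, and those of dim miRNAs by the floor.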
